A study of Mus musculus with 6 samples.

Results

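The F-box proteins, ubiquitin-conjugating enzymes and cullins supply the middle and last steps by which a cell tags proteins with ubiquitin. Ubiquitin is passed from an activating enzyme (E1) to a conjugating enzyme (E2, the Ube2 genes) and from there to a substrate held by a ligase (E3). In the cullin-RING ligases a cullin is the scaffold that carries the E2 at one end and a substrate receptor at the other. F-box proteins are the receptors of the Cul1 ligase, called SCF, and their names follow the substrate-binding part: leucine-rich repeats in Fbxl, WD40 repeats in Fbxw, other or no known domains in Fbxo.

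The genes were all those of the array annotation whose current mouse symbol starts with Fbxo, Fbxl, Fbxw or Cul and a digit, or with Ube2. They were 87 of 11837 named genes and 193 of 36112 clones: 31 Ube2, 8 Cul, 11 Fbxl, 26 Fbxo and 11 Fbxw genes. The spelling rule also took in Ube2cbp, a protein named for binding an E2, and Ube2d-ps, a pseudogene. A further 12 clones that the annotation gives to several genes, with a listed gene among them, were left out.

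RNA came from adrenal glands of PACAP -/- mice and of PACAP +/+ mice, both 129XC57BL6 F2. PACAP, the neuropeptide encoded by Adcyap1, is released by the splanchnic nerve and raises cyclic AMP in chromaffin cells, which secrete adrenaline and noradrenaline from the medulla of the gland. Each of 6 spotted cDNA arrays held PACAP -/- RNA labelled with Cy3 (green) against PACAP +/+ RNA labelled with Cy5 (red), per the labels. The labels give no sex, no age and no statement that the arrays held separate animals, so each p-value reflects array-to-array spread alone, part of which may be technical. The dyes were never exchanged, and genotype and dye cannot be told apart. In whole-gland RNA, fewer cells of a type and less RNA per cell cannot be told apart either.

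All values below are log2 ratios of PACAP -/- over PACAP +/+, from spots whose deposited quality score exceeded 0.3. They were normalized by global loess, 1 intensity-dependent curve per array, and tested against 0 with limma on clones measured on at least 4 arrays. An adjusted p (Benjamini-Hochberg over all 28793 clones tested) under 0.05 counts as passing. Because 46.9% of the variance of the mean ratios lay between the 48 print blocks, the areas of the slide printed by 1 pin each, the counts and the named genes are also given after print-tip loess, which fits each block separately. The Adcyap1 clone gave no check of the labels: it passed the quality score on 2 arrays, at -0.17 and 0.02. Signals are given after subtraction of local background, and signal over background divides that signal by the background. The red signal of the Adcyap1 clone, so subtracted, was smaller than its local background on 4 arrays. Median red signal over background lay between 1.15 and 4.79 across arrays, lowest on arrays 2 and 4, and median green signal over background between 5.39 and 7.07. Red signal over background of the 6 cortex markers measured ran from 1.68 (Mc2r) to 51.5 (Hsd3b1), and that of the 6 chromaffin markers from 1.62 (Slc18a1) to 18.9 (Chga). Markers of other cells were measured too, at 0.96 (Alas2) to 8.30 (Slc4a1) for 3 erythroid, 0.81 (Ptprc) to 30.4 (Cd4) for 4 lymphocyte, 0.82 (Mylpf) to 14.8 (Acta1) for 3 skeletal muscle markers and 0.99 for the adipocyte marker Fabp4.

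Of the 193 clones, 161 were tested, covering 80 of the 87 genes. The 32 untested clones passed the quality score on 0 (10 clones), 1 (6), 2 (11) or 3 arrays (5). Fbxl4, Fbxo33, Fbxo36, Fbxw24, Fbxw4, Ube2g2 and Ube2w had no tested clone.

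PACAP -/- adrenals differed from PACAP +/+ adrenals at 45 of the 161 clones with global loess, 28% against 30.4% of all clones. Of these, 26 were higher, against a background of 16.3% of all clones, and 19 were lower, against 14.1%. After print-tip loess 20 clones passed, 12.4% against 11.2% of all clones, with 14 higher (background 6.71%) and 6 lower (background 4.51%). The share called thus lay near that of the whole array in both normalizations. The median ratio of the 161 clones was 0.03 with global loess and 0.01 after print-tip loess, against 0.02 and 0.00 for all clones. On single arrays the median ratio of these clones ranged from -0.03 to 0.06 with global loess.

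Calls were spread over all 5 families. Ube2 clones had 14 higher and 6 lower of 70 tested, with a median ratio of 0.06, and after print-tip loess 7 higher and 1 lower. Cullin clones had 3 higher and 3 lower of 18, with a median of 0.16, and 3 higher and 1 lower after print-tip loess. Among the F-box families, Fbxo had 6 higher and 7 lower of 46, Fbxl 2 higher and 1 lower of 14, and Fbxw 1 higher and 2 lower of 13. Their median ratios were -0.08, -0.13 and 0.02 with global loess and -0.04, 0.02 and -0.03 after print-tip loess. In the second normalization Fbxo had 3 calls in each direction, Fbxl had 1 higher call and Fbxw 1 lower call. Differences between families were not tested.

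**Figure D1:**
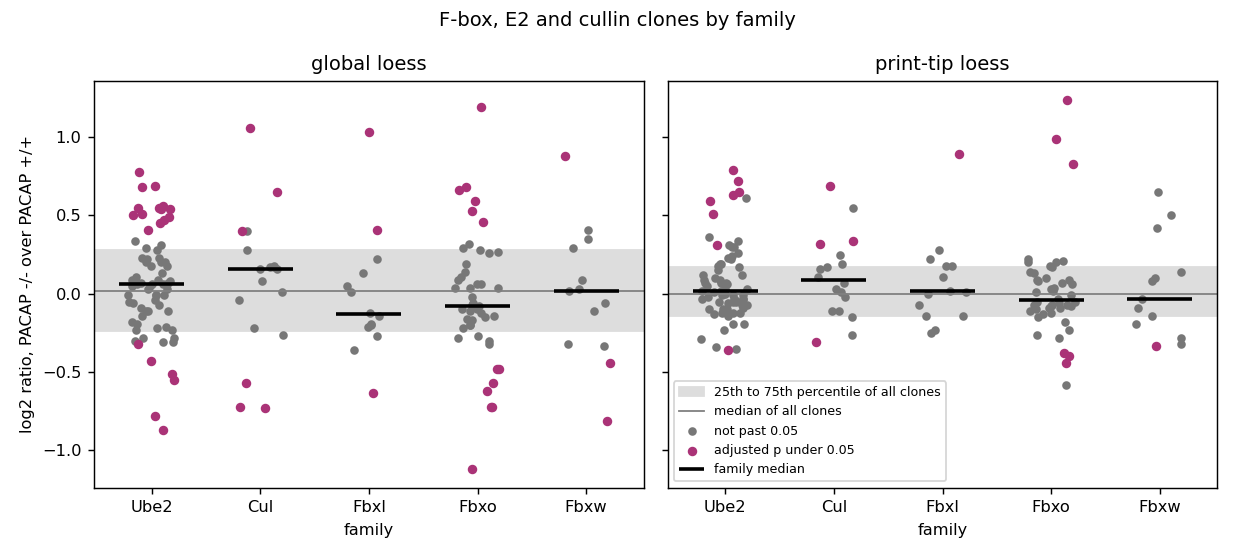
Log2 ratio of PACAP -/- over PACAP +/+ (vertical axis) for the 161 tested clones by family, with global loess (left) and print-tip loess (right). Each point is 1 clone, black bars are family medians, and the grey band runs from the 25th to the 75th percentile of all 28793 clones; the medians of all 5 families lie inside it, between -0.13 and 0.16 with global loess.

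In both normalizations and in the same direction, 14 clones of 13 genes passed, 8.70% of those tested against 6.98% of all clones. The 9 higher ones (background 4.80%) belonged to Fbxo38, Cul4b, Fbxl5, Ube2a, Fbxo32, Ube2k (2 clones), Fbxo10 and Cul4a. The 5 lower ones (background 2.19%) belonged to Fbxw2, Fbxo43, Cul3, Fbxo15 and Ube2j2. No clone passed in opposite directions. A gene title identified 6 of the 14 clones in the scanner files, and the other 8 were titled only as ESTs or RIKEN cDNAs, so that their gene names rest on the annotation alone.

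**Figure D2:**
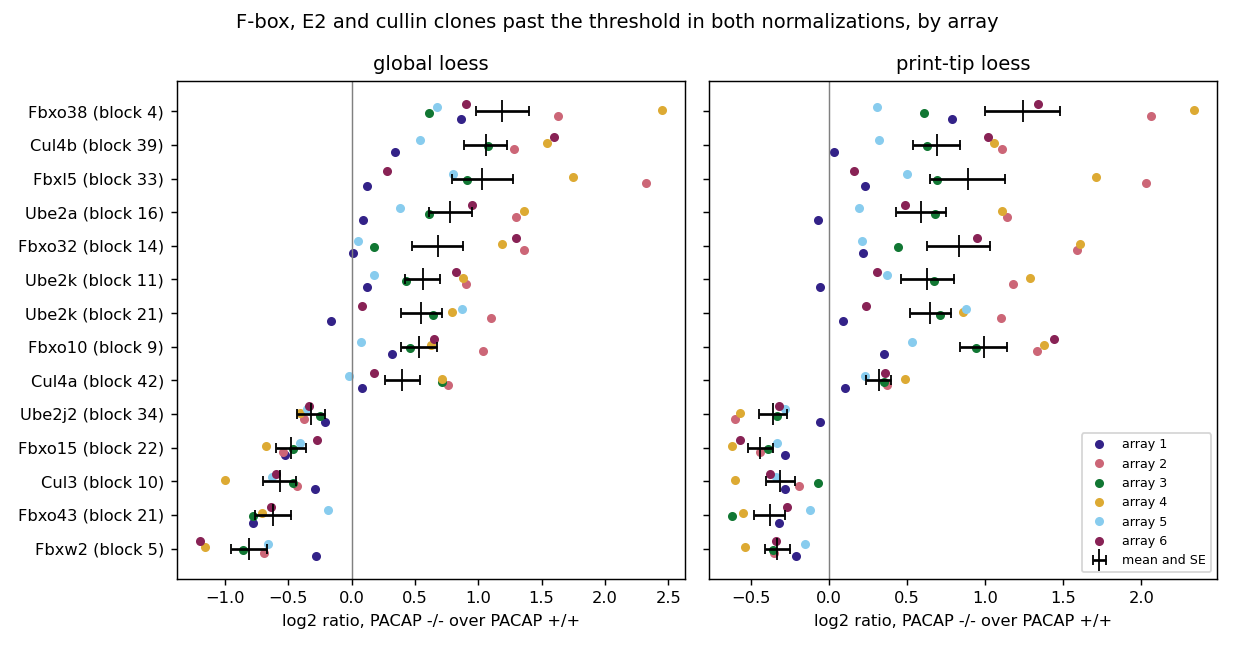
Log2 ratio of PACAP -/- over PACAP +/+ (horizontal axis) on each of the 6 arrays for the 14 clones that passed in both normalizations, with the mean and SE in black; the print block of each clone is in brackets. Arrays 2 and 4 are the 2 highest points for 5 of the 9 higher clones with global loess, while the 5 lower clones lie below 0 on every array measured.

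The cullin scaffolds of the DDB1-type ligases, Cul4a and Cul4b, each had 1 tested clone, which was higher in PACAP -/- adrenals in both normalizations. A second Cul4b clone, in block 32, passed the quality score on 3 arrays and was not tested. The tested Cul4b clone, on chromosome X, had log2 ratios of 0.34, 1.28, 1.08, 1.54, 0.54 and 1.60 on arrays 1 to 6. All 6 arrays lay above 0, and the mean was 1.06 ± 0.17 (SE, n = 6), a 2.09-fold higher level (limma, adjusted p = 0.0013). After print-tip loess the mean was 0.69 ± 0.15 (adjusted p = 0.0294). The deposited signals of this clone were 2355.2, 2553.1, 3016.3, 1635.5, 2217.2 and 3736.5 in the PACAP -/- channel, against 1535.5, 435.9, 630.8, 169.3, 680.3 and 363.9 in the PACAP +/+ channel, before any normalization between dyes. Across all clones the PACAP -/- channel was also the brighter one on every array. Its median signal was 466.4 to 830.0, against 126.7 to 389.6 in the PACAP +/+ channel. Without arrays 2 and 4 the Cul4b clone passed with global loess (0.89, adjusted p = 0.019) but not after print-tip loess (0.50, adjusted p = 0.134). The Cul4a clone, on chromosome 8, was smaller in effect, at 0.40 ± 0.14 (n = 6, adjusted p = 0.0441), and 5 of 6 arrays lay above 0. Its print-tip mean was 0.32 ± 0.08 (adjusted p = 0.0369), and the global call was lost without array 2, 3 or 4. Ddb1, the adaptor that joins Cul4 to its receptors, passed with global loess at 0.49 ± 0.17 (adjusted p = 0.0406) but not after print-tip loess (0.40, adjusted p = 0.0642). Its clone carries the title of another gene, a calcium-binding protein.

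Cul3, the scaffold for BTB-domain receptors such as Keap1, gave contrary results across its 4 clones. The clone in print block 10 was lower, at -0.29, -0.43, -0.46, -1.0, -0.63 and -0.60 on arrays 1 to 6. Its mean was -0.57 ± 0.13 (adjusted p = 0.00581) and, after print-tip loess, -0.31 ± 0.09 (adjusted p = 0.0449). The clone in block 2 was also lower with global loess, at -0.72 ± 0.15 (n = 5, adjusted p = 0.0045), but not after print-tip loess (-0.15, adjusted p = 0.276). Both of these clones were titled only as ESTs. The clones in blocks 46 and 39, both titled cullin 3, gave 0.65 ± 0.23 (adjusted p = 0.0441) and 0.40 ± 0.16 (adjusted p = 0.0769), and after print-tip loess 0.55 (adjusted p = 0.11) and 0.25 (adjusted p = 0.312). The block 46 call was lost without array 2, 3 or 4. Cul1, the SCF scaffold, had 1 clone of 5 past the threshold, lower at -0.73 ± 0.13 (adjusted p = 0.00205), with a print-tip value of -0.26 (adjusted p = 0.0571). Without arrays 2 and 4 that clone passed with global loess (-0.64, adjusted p = 0.0344) but not after print-tip loess (-0.24, adjusted p = 0.247). The other Cul1 clones lay between -0.26 and 0.18 and did not pass. None of the clones of Cul5, Cul7 or Cul9 passed in either normalization.

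Promoter sequences of the genes called in both normalizations were searched for the cyclic AMP response element, since PACAP receptors signal through cyclic AMP. The half-site CGTCA or its reverse complement TGACG was searched on both strands of the 250 bases before each start in RefSeq's GRCm38.p6 promoters. It occurred in 17.8% of all 32851 windows, and the full site TGACGTCA, which contains it, in 1.55%. Of the 87 genes, 66 were matched, and 26 of their 93 windows (28%) held the half-site; the full site was found for Fbxw9 and Ube2h. Of the 13 genes called in both, 8 were matched, and 6 of their 11 windows held the half-site. The windows of the 3 cullins called in both and of Ube2k, the gene with the most print-tip calls, are printed with half-sites in capitals. Cul4a had 2 half-sites, at positions -207 and -190 from the start (chr8:13105373-13105622, plus strand), Cul3 had 1, at -117 (chr1:80340691-80340940, minus strand), and Cul4b (chrX:38576197-38576446, minus strand) and Ube2k (chr5:65536995-65537244, plus strand) had none in these windows.
Cul4a: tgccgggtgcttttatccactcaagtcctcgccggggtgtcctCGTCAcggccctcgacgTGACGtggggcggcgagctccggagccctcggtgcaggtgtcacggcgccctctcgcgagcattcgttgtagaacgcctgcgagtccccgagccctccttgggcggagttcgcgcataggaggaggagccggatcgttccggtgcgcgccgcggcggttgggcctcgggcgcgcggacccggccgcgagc
Cul3: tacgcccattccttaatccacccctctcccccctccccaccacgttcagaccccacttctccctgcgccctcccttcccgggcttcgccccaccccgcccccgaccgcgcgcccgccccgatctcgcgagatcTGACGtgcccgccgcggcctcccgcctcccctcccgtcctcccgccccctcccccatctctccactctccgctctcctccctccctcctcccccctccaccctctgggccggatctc
Cul4b: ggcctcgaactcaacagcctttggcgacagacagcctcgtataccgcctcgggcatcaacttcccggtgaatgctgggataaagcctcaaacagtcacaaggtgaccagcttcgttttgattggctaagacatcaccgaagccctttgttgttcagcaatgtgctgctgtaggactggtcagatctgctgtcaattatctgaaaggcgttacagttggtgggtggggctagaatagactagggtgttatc
Ube2k: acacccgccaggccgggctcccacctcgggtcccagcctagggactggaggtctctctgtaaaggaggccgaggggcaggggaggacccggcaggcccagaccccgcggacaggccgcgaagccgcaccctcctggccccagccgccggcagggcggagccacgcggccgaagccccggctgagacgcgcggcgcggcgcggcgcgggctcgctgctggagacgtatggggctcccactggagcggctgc
The Cul4b window is the poorest of the 4 in CpG, with 9 CpG dinucleotides against 38 for Cul4a, 23 for Cul3 and 29 for Ube2k.

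Among the E2 enzymes, clones of Ube2a and Ube2k were higher in PACAP -/- adrenals in both normalizations and a clone of Ube2j2 was lower. Ube2a, the Rad6 homologue that acts with Rad18 on PCNA, had 2 tested clones. Its block 16 clone had ratios of 0.09, 1.30, 0.61, 1.36, 0.38 and 0.95 on arrays 1 to 6. Arrays 2 and 4 were the highest and array 1 was close to 0. The mean was 0.78 ± 0.17 (adjusted p = 0.00479) and, after print-tip loess, 0.59 ± 0.16 with 5 of 6 arrays above 0 (adjusted p = 0.0413). The block 11 Ube2a clone was at 0.09 and did not pass (adjusted p = 0.56, print-tip 0.31, adjusted p = 0.0683). The related Ube2b passed with global loess only and at 1 of 2 tested clones. That clone was at 0.69 ± 0.22 (adjusted p = 0.03) and lost its call without array 2, 4 or 6. The second Ube2b clone was at -0.21 (adjusted p = 0.343, print-tip 0.34, adjusted p = 0.0949).

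Ube2k, also called huntingtin interacting protein 2, builds ubiquitin chains on its own. It had 5 tested clones, and 2 of them passed in both normalizations. The block 11 clone read 0.12, 0.90, 0.43, 0.88, 0.18 and 0.82 on arrays 1 to 6, a mean of 0.56 ± 0.14 (adjusted p = 0.0109), with 0.63 ± 0.17 after print-tip loess (adjusted p = 0.0418). The block 21 clone read -0.16, 1.10, 0.64, 0.79, 0.87 and 0.08, a mean of 0.55 ± 0.16 (adjusted p = 0.0209), with 0.65 ± 0.13 after print-tip loess (adjusted p = 0.0293). Both clones were above 0 on most arrays and lowest on array 1, and the block 21 call was lost without array 2, 3, 4 or 5. The block 9 clone passed after print-tip loess only, at 0.31 ± 0.08 (adjusted p = 0.0432), where global loess had placed it at -0.14. The remaining clones, in blocks 18 and 35, were at 0.13 and 0.03 and did not pass; after print-tip loess the block 35 clone was at -0.23 (adjusted p = 0.0658).

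Ube2j2, a membrane-anchored E2 of degradation at the endoplasmic reticulum, was lower in both normalizations at 1 of 3 clones. Its block 34 clone read -0.21, -0.38, -0.25, -0.41, -0.35 and -0.34 on arrays 1 to 6. All 6 arrays lay between -0.41 and -0.21, and the mean was -0.32 ± 0.11 (adjusted p = 0.0429) with global and -0.36 ± 0.09 (adjusted p = 0.0369) with print-tip loess. The global call was lost without array 1, 2, 3, 4 or 5. A block 3 clone was lower with global loess only (-0.51 ± 0.15, n = 5, adjusted p = 0.0211), and a block 42 clone did not pass (0.09).

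Ube2l3 and Ube2d3 had more global calls than any other gene of the list but none after print-tip loess. Ube2l3, the E2 of HECT and RBR ligases such as parkin, had all 7 clones above 0, between 0.18 and 0.54, and 5 passed as higher. Its print-tip means ran from 0.06 to 0.30, and the nearest to the threshold was the block 37 clone (adjusted p = 0.0549). All 7 Ube2l3 clones lay in blocks whose mean ratio was above 0, between 0.04 and 0.35. One of the 5 called clones, in block 24, was titled Nfatc4. Ube2d3, an E2 used by many ligases, had 3 clones higher, at 0.54 to 0.68, and 1 lower, at -0.87 ± 0.19 (n = 4, adjusted p = 0.00731). The 3 higher ones lay in blocks with means of 0.24 to 0.54 and the lower one in a block with a mean of -0.35. After print-tip loess the 6 Ube2d3 clones lay between -0.34 and 0.26. Its close relative Ube2d2a showed the converse: none of its 5 clones passed with global loess, while 2, in blocks 1 and 5, passed as higher after print-tip loess (0.51 and 0.79, adjusted p = 0.0355 and 0.0319). Ube2g1 likewise passed only after print-tip loess, at 1 of 2 tested clones (0.72, adjusted p = 0.0385, global 0.20). Its other clone was at -0.05 and, after print-tip loess, -0.03 (adjusted p = 0.861).

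Ube2q1, Ube2t, Ube2v2 and Ube2o passed with global loess only. Ube2q1 was higher at 2 of 3 clones, 0.51 ± 0.12 (adjusted p = 0.00626) and 0.49 ± 0.15 (adjusted p = 0.0255), both in block 36, and these were at -0.02 and 0.05 after print-tip loess. Ube2t, the E2 of the Fanconi anaemia pathway, was lower at -0.78 ± 0.15 (adjusted p = 0.00328), with -0.35 after print-tip loess (adjusted p = 0.0842). Ube2v2, which lacks the catalytic cysteine and pairs with Ube2n, was lower at -0.55 (adjusted p = 0.00689; print-tip -0.14). Ube2o, a large enzyme that combines E2 and E3 activity, was lower at 1 of 2 tested clones, at -0.43 (adjusted p = 0.0229, print-tip -0.03). The other was at -0.30 and did not pass (adjusted p = 0.0909).

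Among F-box receptors, Fbxo38, Fbxl5, Fbxo32 and Fbxo10 were higher in both normalizations. Fbxo38, which directs the T cell surface protein PD-1 to degradation, had the largest ratio of the whole list. It read 0.86, 1.63, 0.61, 2.45, 0.67 and 0.90 on arrays 1 to 6. Every array was above 0, with arrays 2 and 4 the highest, and the mean was 1.19 ± 0.21, or 2.28-fold (adjusted p = 0.002), against 1.24 ± 0.24 after print-tip loess (adjusted p = 0.0283). Its deposited signals ran from 1388 to 4090 in the PACAP -/- channel, against 250.5 to 1562 in the PACAP +/+ channel, before normalization between dyes. The PACAP -/- signal was the higher one on every array, as was the median PACAP -/- signal of all clones. That order therefore does not set the clone apart. Without arrays 2 and 4 its mean was 0.76 in both normalizations, past the threshold with global loess (adjusted p = 0.0155) and not after print-tip loess (adjusted p = 0.0647). The clone is titled only as ESTs. Its median signal over background was 1.64 in the PACAP +/+ channel and 22.5 in the PACAP -/- channel.

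Fbxl5, the iron-sensing receptor that degrades Ireb2, read 0.12, 2.32, 0.91, 1.75, 0.80 and 0.28 on arrays 1 to 6. Its signal in the PACAP +/+ channel was 44.0 times background. Its mean was 1.03 ± 0.24 (adjusted p = 0.00684), with 0.89 ± 0.24 after print-tip loess (adjusted p = 0.0433). The values were high on arrays 2 and 4 and low on arrays 1 and 6, and without arrays 2 and 4 the mean was 0.53 (adjusted p = 0.0764; print-tip 0.39, adjusted p = 0.131). Its substrate gene Ireb2 stood at 0.43 ± 0.18 (n = 4) and did not pass (adjusted p = 0.0812; print-tip 0.30, adjusted p = 0.162).

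Fbxo32, or atrogin-1, is known for protein breakdown in wasting muscle. Its block 14 clone read 0.01, 1.36, 0.18, 1.19, 0.05 and 1.30 on arrays 1 to 6. Arrays 1, 3 and 5 were close to 0 and arrays 2, 4 and 6 above 1. The mean was 0.68 ± 0.20 (adjusted p = 0.0194; print-tip 0.83 ± 0.20, adjusted p = 0.0351), and the global call was lost without array 2, 4 or 6. A second Fbxo32 clone was at 0.06 and did not pass. Of 3 measured skeletal muscle markers none was higher and 1, Mb, was lower (-0.36 ± 0.13, adjusted p = 0.041, print-tip -0.08, adjusted p = 0.547); the others were at -0.13 and 0.38.

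Fbxo10, reported to target BCL2 in human cells, had 2 clones in the same print block, called in opposite directions with global loess. One read 0.32, 1.04, 0.46, 0.63, 0.07 and 0.65, a mean of 0.53 ± 0.14 (adjusted p = 0.0119), with 0.99 ± 0.15 after print-tip loess (adjusted p = 0.0246). The other read -0.01, -0.65, -0.94, -1.35, -0.15 and -1.22, a mean of -0.72 ± 0.17 (adjusted p = 0.00884), and did not pass after print-tip loess (-0.26, adjusted p = 0.129). Both were titled only as ESTs, and on each of the 6 arrays the first lay above the second.

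The lower F-box receptors were Fbxw2, Fbxo43 and Fbxo15. Fbxw2 read -0.28, -0.69, -0.86, -1.16, -0.66 and -1.20 on arrays 1 to 6. All 6 arrays were below 0, and the mean was -0.81 ± 0.14, a level of 0.571 times that of PACAP +/+ (adjusted p = 0.00189). Its block had a mean of -0.51, and after print-tip loess the ratio was -0.33 ± 0.08 (adjusted p = 0.0357). Fbxo43, the meiotic inhibitor of the anaphase-promoting complex also called Emi2, read -0.78, -0.78, -0.71, -0.19 and -0.64 on arrays 1, 3, 4, 5 and 6. Its mean was -0.62 ± 0.14 (n = 5, adjusted p = 0.0071), with -0.38 ± 0.10 after print-tip loess (adjusted p = 0.0443). Without arrays 2 and 4, Fbxw2 and Fbxo43 passed with global loess (-0.75, adjusted p = 0.0235, and -0.60, adjusted p = 0.0416) but not after print-tip loess (-0.26, adjusted p = 0.2, and -0.33, adjusted p = 0.162).

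Fbxo15, a gene of mouse embryonic stem cells, had 3 tested clones, all below 0. The lowest, in block 6, carries the title sarcoglycan alpha, a muscle membrane protein, in the scanner files, so that the gene behind it is not settled here. It read -0.27, -0.93, -0.67, -2.22 and -1.54 on arrays 1, 2, 3, 4 and 6, a mean of -1.12 ± 0.23 (n = 5, adjusted p = 0.00425), and did not pass after print-tip loess (-0.58 ± 0.19, adjusted p = 0.0721). Its red signal was 1.55 times background. The block 22 clone, titled f-box only protein 15, read -0.53, -0.54, -0.46, -0.68, -0.41 and -0.27 on arrays 1 to 6. These values were close together, at a mean of -0.48 ± 0.12 (adjusted p = 0.00855), and the clone passed after print-tip loess too (-0.44 ± 0.08, adjusted p = 0.0252). The block 4 clone, with the same title, was at -0.17 ± 0.21 (n = 4) and did not pass (adjusted p = 0.574).

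In all, 10 tested clones of 7 genes had a scanner title that names another gene than the annotation. They were the Fbxo15 clone above, 4 clones of Fbxo11 (2 titled mutS homolog 6 and 2 Rprd2), and 1 clone each of Cul2 (cytochrome c oxidase subunit VIIc), Fbxw8 (Paip2), Ube2l3 (Nfatc4), Ube2q2 (dyskerin) and Ube2s (poliovirus sensitivity). With global loess 2 of the 10 passed, the Fbxo15 clone as lower and the Ube2l3 clone as higher. After print-tip loess 1 passed, the Cul2 clone, at 0.34 ± 0.09 (adjusted p = 0.0422; global -0.22).

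Fbxo3, Fbxo42, Fbxw9, Fbxl18 and 4 other F-box genes passed with global loess only. Fbxo3 was lower at both clones, -0.72 ± 0.14 and -0.57 ± 0.14 (n = 5 each, adjusted p = 0.00378 and 0.0105), which lay in blocks 1 and 3 and were at -0.07 and -0.18 after print-tip loess. Fbxo42 was higher at 2 of 4 clones, 0.66 ± 0.12 (adjusted p = 0.00235) and 0.59 ± 0.15 (adjusted p = 0.0117), in blocks 36 and 40, and these were at 0.09 and -0.08 after print-tip loess. Fbxw9 was higher at 0.88 ± 0.17 (adjusted p = 0.00278; print-tip 0.42, adjusted p = 0.0697), and its second clone was at -0.33. Fbxl18 was lower at -0.63 ± 0.14 (adjusted p = 0.00654; print-tip -0.23, adjusted p = 0.105). Fbxl19 (0.41, print-tip 0.28) and Fbxo41 (0.46, print-tip 0.14) were higher. Fbxo28 was lower at 1 of 4 tested clones (-0.48, print-tip -0.28) and Fbxw5 at 1 of 2 (-0.44, print-tip 0.14). The other Fbxo28 clones lay between -0.30 and 0.26 and the other Fbxw5 clone at -0.06, and none of these passed. Fbxo8 passed after print-tip loess only, as lower (-0.40, adjusted p = 0.0311; global 0.14). Of the 80 tested genes 47 had no clone past the threshold in either normalization. A like count over all genes of the array is not given here, so this number describes the list alone.

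**Figure D3:**
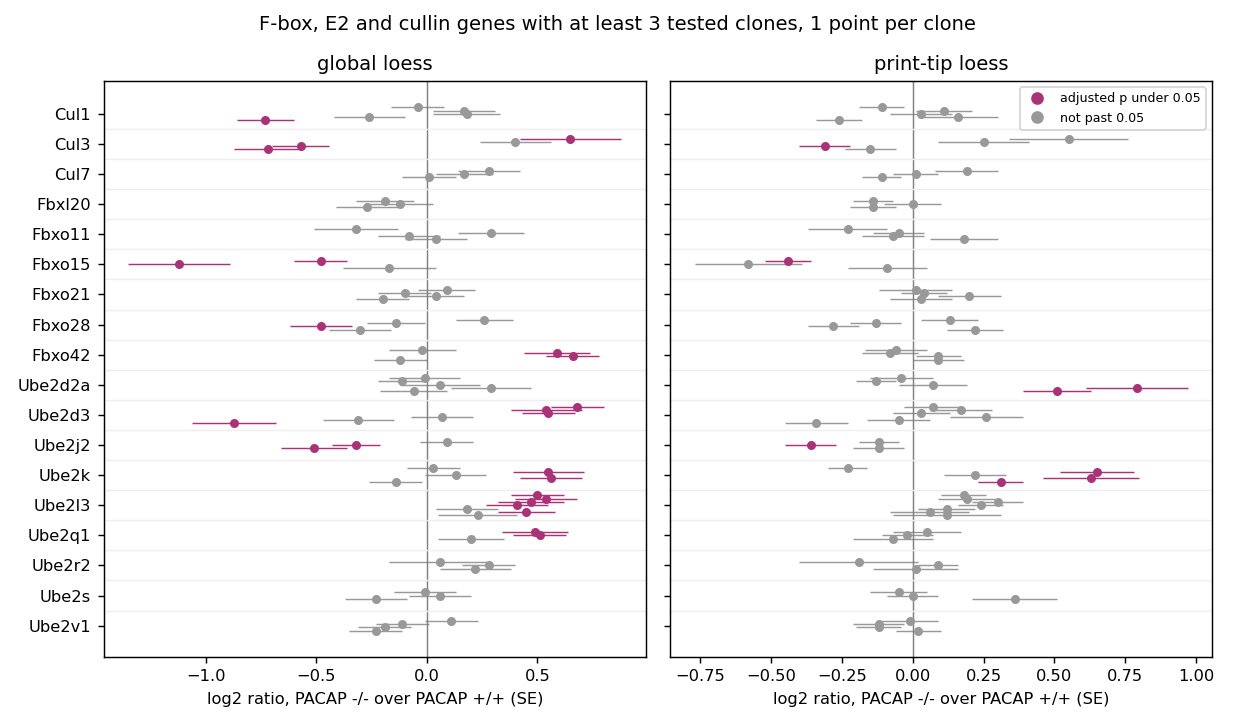
Log2 ratio of PACAP -/- over PACAP +/+ with SE (horizontal axis) for each clone of the genes with at least 3 tested clones, with global loess (left) and print-tip loess (right); coloured points passed an adjusted p of 0.05. With global loess Cul3 and Ube2d3 have coloured points on both sides of 0, and after print-tip loess no gene does.

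With global loess, clones of the same gene shared a sign about as often as on the whole array. Of 26 genes with exactly 2 tested clones, both clones had the same sign in 14 (53.8%) with global loess, against 53.4% of 2902 such genes on the array. After print-tip loess the shares were 46.2% and 57.1%. Clones of Cul3, Fbxo10 and Ube2d3 passed in opposite directions with global loess, and those of no gene on the list did after print-tip loess. At least 2 clones passed in the same direction for 9 genes with global loess and for Ube2d2a and Ube2k after print-tip loess.

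The direction of a global call followed the print block. Block means ranged from -0.57 to 0.56 over the array, and 18 of the 19 lower calls lay in blocks with a mean below 0 and 21 of the 26 higher calls in blocks with a mean above 0. Across the 161 clones the ratio correlated with the mean of its own block at r = 0.63 with global loess and -0.08 after print-tip loess, as a description of clones that share blocks and arrays; over all clones r was 0.69 and 0.00. Of all clones 8756 passed with global loess, and 2011 passed in both normalizations in the same direction. On the list, print-tip loess removed 31 of the 45 global calls and added 6. Of the 9 higher clones called in both, 5 lay in blocks with a mean below 0.

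**Figure D4:**
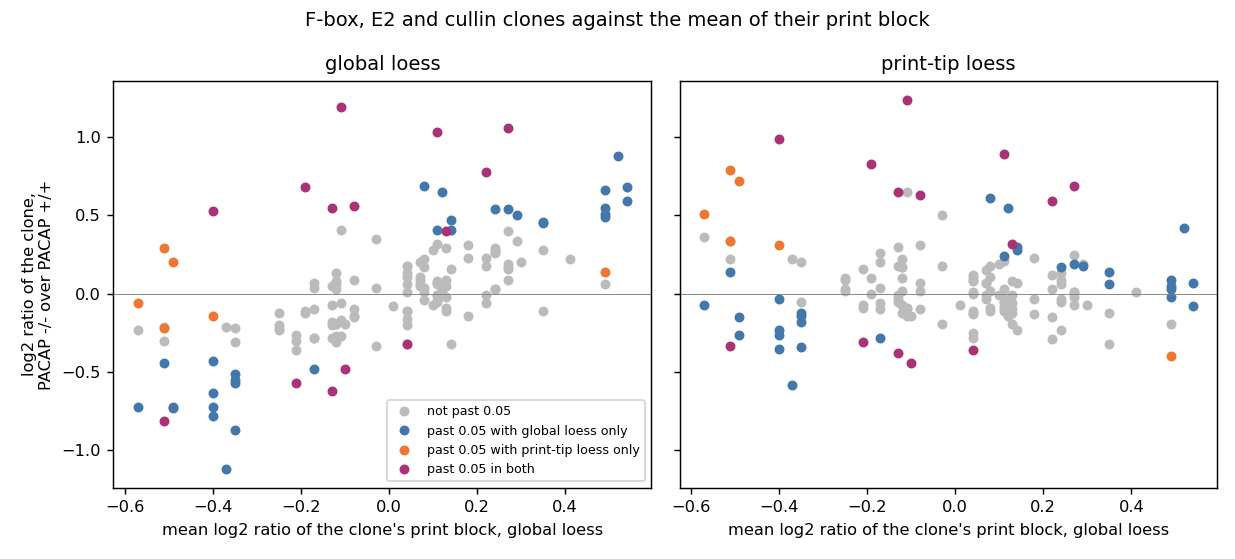
Log2 ratio of each of the 161 clones (vertical axis) against the mean log2 ratio of all spots in its print block (horizontal axis), with global loess (left) and print-tip loess (right). With global loess the points rise with the block mean (r = 0.63), and after print-tip loess they do not (r = -0.08).

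**Figure D5:**
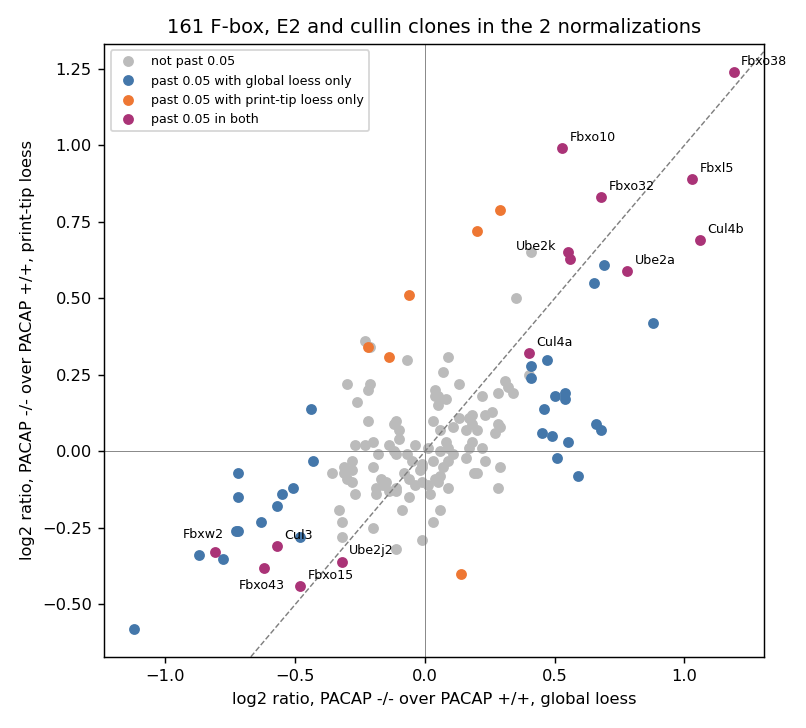
Log2 ratio of PACAP -/- over PACAP +/+ for the 161 clones after global loess (horizontal axis) and print-tip loess (vertical axis), with the line of equal values dashed. The 14 clones that passed in both lie to the upper right and lower left, and the 6 that passed with print-tip loess only lie between -0.22 and 0.29 on the horizontal axis.

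The number of calls also depended on which arrays were kept, on the list as over the whole array. Without arrays 2 and 4 together, 10 of 138 tested clones passed with global loess, 7.25%, against 8.48% of all clones, with 6 higher (background 6.19%) and 4 lower (background 2.3%). Of these, 4 were among the 14 clones called in both: Fbxo38, Cul4b, Fbxo43 and Fbxw2. After print-tip loess no clone of the list passed when array 2, 3, 4 or 6 was left out (limma, adjusted p), although 35, 39, 32 and 42 clones had an unadjusted p under 0.05. Over the whole array 1, 1, 19 and 1 clones passed in those fits.

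The partners of these enzymes were described from lists of genes at each step, by the clone of highest signal per gene. Of all clones 16.3% were higher and 14.1% lower, with a median of 0.02. Those shares count every tested clone, of any signal and with several clones for some genes, so they are only a rough measure for the lists. Of 5 tested E1 enzymes 3 were higher and none lower: Atg7, the E1-like enzyme of autophagy (0.85 ± 0.13, adjusted p = 0.00127), Uba6, an E1 for ubiquitin (0.80 ± 0.18, adjusted p = 0.00564), and Uba3 of the NEDD8 pathway (0.42, adjusted p = 0.0461). Uba6 also passed after print-tip loess (0.62, adjusted p = 0.0293), which the others did not; its clone is titled jagged 2. Of 15 genes of the NEDD8 pathway and the COP9 signalosome, which add and remove the activating tag of cullins, 6 were higher and none lower, with a median of 0.27 (print-tip 0.08). Cops5, the catalytic subunit of the signalosome, was at 0.84 ± 0.13 (adjusted p = 0.00101; print-tip 0.26, adjusted p = 0.17) and Cops4 at 0.76 ± 0.15 (adjusted p = 0.00346; print-tip 0.08, adjusted p = 0.64). After print-tip loess 1 gene of that list passed, Cops7a (0.55, adjusted p = 0.0431).

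Of 14 core subunits and adaptors of cullin ligases 2 were higher and 1, Cks1b, a cofactor of the Skp2 receptor, was lower (-0.60 ± 0.15, adjusted p = 0.0122; print-tip 0.06). Of 7 F-box genes with other names Nccrp1 was higher (1.26 ± 0.20, adjusted p = 0.00134; print-tip 0.98, adjusted p = 0.0285) and Kdm2b, titled by its F-box name, was lower (-0.60 ± 0.18, adjusted p = 0.0272; print-tip -0.09). Of 30 HECT and RING ligases 4 were higher, among them Wwp1 (0.73, adjusted p = 0.0257), and 4 lower, among them Siah2 (-0.63, adjusted p = 0.00542). After print-tip loess neither passed: Wwp1 was at 0.54 (adjusted p = 0.114) and Siah2 at -0.06 (adjusted p = 0.601). Smurf1 (0.46, adjusted p = 0.0305, print-tip 0.52, adjusted p = 0.0298) and Nedd4l (0.46, adjusted p = 0.0487, print-tip 0.55, adjusted p = 0.0322) were higher in both normalizations. Of 15 genes of the anaphase-promoting complex 5 were higher and 1 lower. Higher in both normalizations were Cdc27 (0.78 ± 0.13, adjusted p = 0.00149, print-tip 0.33, adjusted p = 0.0414) and Anapc7 (0.49, adjusted p = 0.0487, print-tip 0.75, adjusted p = 0.0363). Anapc4 was higher with global loess only (0.64, adjusted p = 0.00346, print-tip 0.29, adjusted p = 0.128). Of 53 deubiquitinases, the enzymes that remove ubiquitin, 7 were higher and 6 lower. Usp7 was the highest (0.93 ± 0.12, adjusted p = 0.000457, print-tip 0.25, adjusted p = 0.0701), followed by Usp35 (0.68, adjusted p = 0.00562, print-tip 0.24, adjusted p = 0.18). Usp2 (0.49, adjusted p = 0.0173, print-tip 0.46, adjusted p = 0.0406) and Usp9x (0.43, adjusted p = 0.0342, print-tip 0.57, adjusted p = 0.0314) were higher in both normalizations.

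Of 14 tested genes whose proteins are known F-box substrates 6 were higher and none lower at the RNA level, with a median of 0.36 (print-tip 0.24). The transcription factor genes Jun (0.76 ± 0.15, adjusted p = 0.00371) and Foxo1 (0.88 ± 0.14, adjusted p = 0.00142) passed in both normalizations (print-tip 0.70 and 0.35, adjusted p = 0.0252 and 0.0413). Markers of the gland's own cells also passed: 4 of 6 chromaffin markers were higher and 1 lower, and 4 of 6 cortex markers were higher, with medians of 0.82 and 0.90. Chga was at 1.26, Th at 1.10, Star at 1.53 and Hsd3b1 at 1.61 with global loess. After print-tip loess Hsd3b1 passed (1.40, adjusted p = 0.0327), while Chga (0.39, adjusted p = 0.0774), Th (0.65, adjusted p = 0.0726) and Star (0.67, adjusted p = 0.0847) did not. The chromaffin markers Chgb (1.01, print-tip 0.70) and Scg2 (0.64, print-tip 0.89) and the cortex marker Nr5a1 (0.64, print-tip 0.62) were higher in both normalizations. In that order the print-tip adjusted p was 0.0252, 0.0312 and 0.032. The cortex marker Scarb1 passed only after print-tip loess (0.85, adjusted p = 0.0379, global 0.28). The lower chromaffin marker was Slc18a1, a vesicular monoamine transporter gene, at -0.41 (adjusted p = 0.042) with global and -0.46 (adjusted p = 0.0319) with print-tip loess. Their part in the ratios of the ubiquitin genes was not tested. After print-tip loess the numbers higher and lower were 2 and 1 of 6 chromaffin and 3 and 0 of 6 cortex markers. They were 2 and 0 of 14 cullin ligase subunits and 3 and 0 of 30 HECT and RING ligases. For the anaphase-promoting complex they were 2 and 0 of 15 genes, and for deubiquitinases 5 and 3 of 53. Of all clones 6.71% were higher and 4.51% lower after print-tip loess. The 2 cullin ligase subunits were Elob and Glmn, whereas those higher with global loess were Ddb1 and Ddb2. None of 3 erythroid markers or the 1 adipocyte marker passed, and of 4 lymphocyte markers Ptprc was lower (-0.47, adjusted p = 0.0478; print-tip -0.19). None of the 4 listed ubiquitin genes or 6 listed kidney markers was found among the array's named genes, so neither list was analysed.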

How the data were processed

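Each array's red and green intensities and ratio quality score were deposited by the authors; the intensity columns already had local background subtracted, since the 768 empty spots had a median of 1.0 in both channels. The series design text names a GenePix 4000A scanner and IPLab; versions are not given in the sources used here. The deposited value table gives log2 of red over green. Its 35873 rows were matched to values computed from the scanner columns (within 0.002 on all 6 arrays), which identified 1 spot for 99.8%. In that computation the background columns were subtracted from the intensities once more, with a minimum of 1, and each array was scaled by a constant. It holds no loess step. Genes came from that table's annotation, with symbols updated through RefSeq GRCm38.p6 (11616 of 11837 gene IDs held).

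Log2 green over red was computed from the intensities (score above 0.3; empty and 384 control spots left out), normalized with limma 3.58.1 (R 4.3.3) and averaged per clone. lmFit and eBayes tested 28793 clones against 0, two-sided. The test was run on simulated data first. The genes, lists and tests were chosen with earlier results of these data known. Genes were named if called in both normalizations, if among the 10 largest calls in a direction with 1 sign on all arrays, if several clones were called, or if a clone of Fbxo15; from each list, the 2 largest calls or the smallest p. Others are given by their values as counts require.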

Additional observations from a re-analysis of the deposited data

Results flagged for a closer look

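Among 51 named clones, 3 had a single array far from the other arrays of the same clone by Dixon's gap test, which chance alone would give for about 1 clone in 20. The Fbxo3 clone in block 1 was at -0.26 on array 1, against -0.89 to -0.78 on its other arrays with global loess. The Fbxo43 clone was at -0.19 on array 5, against -0.78 to -0.64 on the others. The Ube2q1 clone in block 36 with a mean of 0.49 was at 1.30 on array 6, against 0.17 to 0.48 on the others.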

How the results depend on the processing

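No paired analysis was possible because all 6 arrays form 1 group, in which each array already sets PACAP -/- against PACAP +/+ RNA. The counts of clones past the threshold (45: 26 higher, 19 lower) were 20 (14 and 6) after print-tip loess, 10 (6 and 4) without arrays 2 and 4, and 1 (1 and 0) in the deposited value table, where 61 had an unadjusted p under 0.05 and the median was 0.25. Without a quality filter 17 were higher, and with clones on all 6 arrays 11 were lower. Leaving out 1 array gave 30 to 46 (15 to 26 higher, 15 to 20 lower), the fewest higher being 15 without array 4 and 17 without array 2. After print-tip loess it gave 0 to 21 (0 to 17 higher, 0 to 4 lower), and without arrays 2 and 4 together 0, with 22 at an unadjusted p under 0.05; the last alternative and the removal of clones titled as another gene were chosen after seeing the data. Median centring, a score above 0.5 and background added back kept the count within 1.5 times.

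The deposited value table differs from the main fit in its background subtraction and has no loess. Among the named clones followed through these settings, signs turned in that table for Fbxl5 (-0.11), Fbxo10 (-0.52), Fbxo32 (-0.31), Fbxo42 (-0.10), Fbxo43 (0.34), Ube2d3 (1.04), Ube2k (-0.16 and -0.07) and Ube2l3 (-0.08). After print-tip loess they turned for Fbxo42 (-0.08; -0.17, -0.13 and up to -0.03 leaving out 1 array; -0.07 without arrays 2 and 4), Ube2q1 (-0.02; -0.06, -0.05 and -0.02, and -0.08 for its other clone; -0.04), Ube2k (0.31; 0.35) and, leaving out arrays only, Ube2d3 (-0.01; -0.02 and 0.00 without arrays 2 and 4) and Ube2l3 (-0.06; -0.08). Clones outside that set turned too after print-tip loess, among them Fbxw5 (-0.44 to 0.14) and Fbxo8 (0.14 to -0.40). The cause was not tested. Median red signal over background was 1.37 on array 2 and 1.15 on array 4, the lowest of the 6 arrays; its part in these changes was not tested.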
